A study of Mus musculus with 6 samples.

Results

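The genes that assemble antigen receptors by V(D)J recombination were followed in mature CD4 single-positive (SP) thymocytes that lacked the histone H3K27 demethylases Jmjd3 and Utx. The members were 10 genes chosen by name, namely *Dntt*, *Rag1*, *Rag2*, *Dclre1c*, *Prkdc*, *Xrcc4*, *Xrcc5*, *Xrcc6*, *Lig4* and *Nhej1*. Of these, 9 had a row in the annotation of the array, each with 1 row, among 19752 genes measured in all. *Dclre1c*, which encodes the hairpin-opening nuclease Artemis, was not analysed here. RNA was taken from sorted mature (Vα2hi CD24lo) OT-II CD4 SP thymocytes and hybridized to 6 Affymetrix arrays, 3 of dKO cells and 3 of wild-type cells. The dKO mice carried floxed *Jmjd3* (*Kdm6b*) and *Utx* (*Kdm6a*) alleles together with Cd4-Cre, which is active from the CD4+ CD8+ double-positive (DP) stage onward. The wild-type mice were littermates with floxed alleles and no Cre, so the deletion and the presence of Cre cannot be told apart. All mice carried the OT-II transgene, which supplies an already rearranged T-cell receptor (TCR) to every cell, and the Methods give ages of 6 to 16 weeks for the mice of the study and 6 to 10 weeks for those used to isolate thymocytes for flow cytometry. The replicates were labelled biological, without stating that each came from its own mouse, so p-values cover only the spread among these samples, which may be technical.

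V(D)J recombination joins gene segments of the TCR and immunoglobulin loci. The RAG1 and RAG2 proteins cut the DNA beside the segments, Ku (XRCC5 and XRCC6) and the kinase DNA-PKcs (PRKDC) hold and activate the broken ends, Artemis opens the hairpins, and XRCC4, DNA ligase IV and XLF (NHEJ1) seal them. Terminal deoxynucleotidyl transferase (TdT), the product of *Dntt*, adds nucleotides without a template to the open ends and thereby diversifies the junctions. In thymocytes *Rag1*, *Rag2* and *Dntt* are transcribed while the TCR loci are being rearranged and are switched off after positive selection, whereas the end-joining genes serve DNA repair in most cells.

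The sequences around the start sites of *Dntt*, *Rag1* and *Rag2* are printed because these genes are known for their expression in developing lymphocytes and the results turn on them. They were taken from RefSeq (GRCm38.p6), and run 5′ to 3′ on the strand of the gene from 250 bases before the start to 30 bases after it. The *Dntt* window is chr19:41029025-41029304 on the plus strand, that of *Rag1* is chr2:101649503-101649782 on the minus strand and that of *Rag2* is chr2:101624462-101624741 on the plus strand. Capitals mark matches on either strand to an E box (CANNTG), a Runx core (TGTGGT), an Ikaros core (TGGGAA) or a CCAAT box.
Dntt: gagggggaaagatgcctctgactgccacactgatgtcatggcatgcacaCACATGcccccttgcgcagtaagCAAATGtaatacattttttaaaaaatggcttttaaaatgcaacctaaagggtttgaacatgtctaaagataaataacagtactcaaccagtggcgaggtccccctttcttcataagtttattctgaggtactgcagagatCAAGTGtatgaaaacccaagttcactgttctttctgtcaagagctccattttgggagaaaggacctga
Rag1: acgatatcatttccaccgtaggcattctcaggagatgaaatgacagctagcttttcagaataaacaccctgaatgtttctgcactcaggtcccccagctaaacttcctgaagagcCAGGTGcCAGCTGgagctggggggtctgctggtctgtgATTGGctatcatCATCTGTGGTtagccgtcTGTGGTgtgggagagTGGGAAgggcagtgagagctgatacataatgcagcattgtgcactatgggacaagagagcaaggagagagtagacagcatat
Rag2: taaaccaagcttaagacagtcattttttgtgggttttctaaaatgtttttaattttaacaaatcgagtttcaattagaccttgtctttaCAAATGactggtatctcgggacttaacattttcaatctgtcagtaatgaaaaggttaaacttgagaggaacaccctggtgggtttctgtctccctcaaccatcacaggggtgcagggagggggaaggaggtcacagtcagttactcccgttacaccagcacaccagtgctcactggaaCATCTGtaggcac
The *Dntt* window held 3 E boxes and no other match. The *Rag1* window held 3 E boxes, 2 Runx cores, 1 Ikaros core and 1 CCAAT box, and the E box that starts 85 bases before the start site shared 2 bases with a Runx core. The *Rag2* window held 2 E boxes, 1 of them after the start site. An E box was present in 70.1% of the 32851 windows of this length, an Ikaros core in 23.8%, a CCAAT box in 36.1% and a Runx core in 15.6%. A TATA box (TATAAA, 13.1% of all windows), a GC box (GGGCGG, 34.7%) and a Foxo core (GTAAACA, 3.49%), searched on both strands, had no match in the windows of *Dntt*, *Rag1* and *Rag2*. By contrast, 5 of the 6 end-joining genes with a window held a GC box in at least 1 window. *Lig4* had 2 windows, of which only 1 held a GC box. *Prkdc* had no entry. These matches describe the letters in the windows and are not binding sites.

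The arrays were alike in scale, with a median log2 value of 6.27 to 6.32, a first quartile of 4.97 to 5.01 and an upper quartile of 8.51 to 8.59. *Kdm6a* was 9.48, 9.40 and 9.58 on the dKO arrays and 10.16, 10.11 and 10.20 on the wild-type arrays, and *Kdm6b* changed by -0.09 (adjusted p = 0.32, limma). Where the probes of these rows lie relative to the deleted exons was not given, so both values check the labels only in part. Of all genes, 4563 (23.1%) passed the threshold of adjusted p under 0.05 in limma, 2587 higher and 1976 lower in dKO cells. The median log2 fold change of all genes was 0.0057.

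*Dntt* stood apart from every other member. Its log2 values were 9.43, 9.18 and 8.97 on the dKO arrays, against 7.84, 7.68 and 7.48 on the wild-type arrays. The lowest dKO array lay 1.13 log2 units above the highest wild-type array. The means were 9.19 ± 0.23 in dKO and 7.67 ± 0.18 in wild-type cells (SD, n = 3 each), a 2.88-fold rise (log2 fold change 1.52, SE 0.12, 95% interval 1.26 to 1.78, limma adjusted p = 1.4e-05). Only 8 genes of 19752 had a larger log2 fold change, and 44 genes (0.223%) rose by 2-fold or more. When each array was left out in turn, the log2 fold change of *Dntt* stayed between 1.41 and 1.64. The mean of *Dntt* moved above the upper quartile of the arrays in dKO cells, while in wild-type cells it lay between the median and the upper quartile. The annotation pairs the row with both RefSeq transcripts of the gene and probe positions were not given, so values of TdT isoforms were not separated.

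Markers of other cells that express *Dntt* or the *Rag* genes were read on the same arrays. Beside the counts of called markers below, 13.1% of all genes were called higher and 10% lower. The mean level of 6 measured DP thymocyte markers was 7.41 to 7.51 in dKO and 7.16 to 7.38 in wild-type cells, with 3 markers higher and 1 lower. *Cd8b1*, a coreceptor chain of DP cells, rose by 0.54 (adjusted p = 3.8e-05) and *Cd1d1*, which presents lipids on DP cells, rose by 0.44 (adjusted p = 0.0019). *Mns1* rose by 0.32 (limma adjusted p = 0.019) and *Arpp21* fell by 0.25 (0.022). Each of these 2 calls was lost in 4 of the 6 fits without 1 array. *Cd8a*, the other coreceptor chain, changed by -0.17 and *Ptcra* by 0.07, and these 2 were not called. Early T-cell progenitor markers averaged 5.86 to 6.04 in dKO and 6.06 to 6.08 in wild-type cells, and *Il2ra* was the 1 called of 7 (log2 fold change -0.95). Of these 7, 6 lay below the median of the arrays, and *Il2ra*, with means of 8.01 in dKO and 8.96 in wild-type cells, was the exception. B-lineage markers averaged 5.34 to 5.37 in dKO and 5.40 to 5.48 in wild-type cells, with *Cd79b* lower (-0.63) and the other 9 of 10 not called. Of these 10, 7 lay below the median of the arrays. Markers of mature CD4 SP thymocytes averaged 11.69 to 11.71 in dKO and 11.67 to 11.81 in wild-type cells. Of these 7, *Cd5* (-0.43) and *Zbtb7b* (-0.27) were called lower, *Cd28* (0.24) and *Il7r* (0.20) higher, and 3 were not called. The paper states that dKO cells had no reduced *Zbtb7b* expression. The decrease called here, to 83.2% of wild-type (limma adjusted p = 0.022), is small and departs from that statement. The part of other cells in the *Dntt* value was not tested, and in bulk RNA fewer cells of a type and less RNA per cell cannot be told apart.

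**Figure D1:**
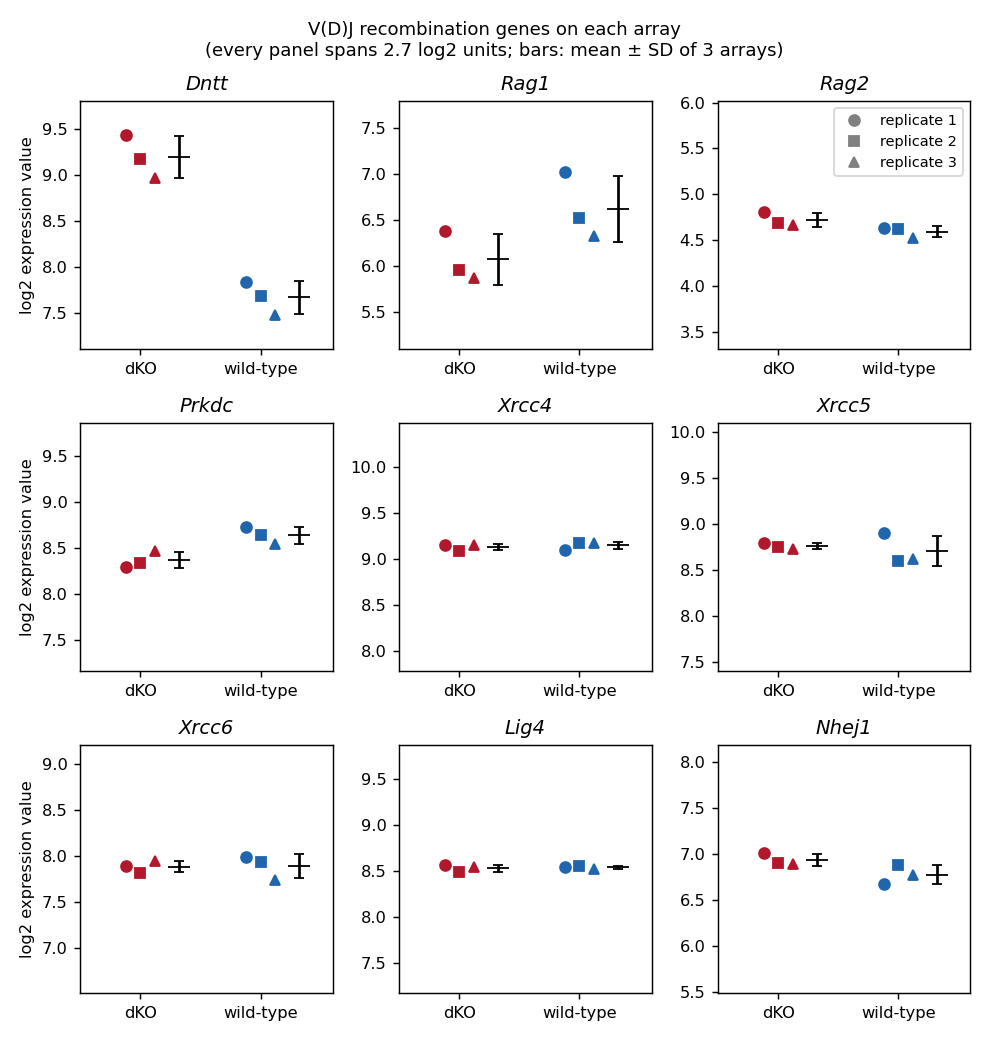
Log2 expression value of each measured member on each array, dKO left and wild-type right in every panel, with the mean and SD of 3 arrays. Every panel spans the same number of log2 units, and *Dntt* is the gene whose dKO arrays (8.97 to 9.43) lie farthest above its wild-type arrays (7.48 to 7.84).

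Between the genotypes, the recombinase genes did not follow *Dntt*. *Rag1* was 6.39, 5.97 and 5.87 on the dKO arrays and 7.03, 6.52 and 6.33 on the wild-type arrays. The groups overlapped, since the highest dKO array lay above the lowest wild-type array. The means were 6.08 ± 0.28 in dKO and 6.63 ± 0.36 in wild-type cells (SD, n = 3 each), so that *Rag1* fell to 68.2% of wild-type (log2 fold change -0.55, SE 0.17, 95% interval -0.94 to -0.17, limma adjusted p = 0.044). This call was close to the threshold and was lost with the arrays quantile normalized again (-0.54, adjusted p = 0.068) or by cyclic loess (-0.55, 0.054). It was also lost without wild-type array 1 (-0.35, adjusted p = 0.11), wild-type array 2 (-0.61, 0.070), dKO array 2 (-0.50, 0.14) or dKO array 3 (-0.45, 0.15).

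*Rag2*, whose product is the regulatory partner of RAG1, lay below the first quartile of the arrays in both genotypes. Its values were 4.81, 4.69 and 4.67 in dKO and 4.63, 4.62 and 4.53 in wild-type cells. The groups did not overlap, but were separated by only 0.03 log2 units. Its log2 fold change of 0.13 (SE 0.05, 95% interval 0.0044 to 0.25) did not pass the test (limma adjusted p = 0.14). *Iftap* overlaps *Rag2* in RefSeq, and the probes of the rows were not given, so signal shared between them was not tested.

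Among the end-joining genes, *Prkdc* was the only 1 of 6 measured that passed the test. Its values were 8.29, 8.34 and 8.46 in dKO and 8.73, 8.64 and 8.54 in wild-type cells. No dKO array reached the lowest wild-type array. The catalytic subunit of the DNA-dependent protein kinase thus fell to 82.9% of wild-type (log2 fold change -0.27, SE 0.06, 95% interval -0.41 to -0.13, limma adjusted p = 0.012). A decrease of at least this size was called for 1180 genes. The call was lost where variances were not moderated (adjusted p = 0.10).

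*Nhej1*, encoding the XLF protein that stimulates ligation, was 7.01, 6.90 and 6.88 in dKO and 6.67, 6.87 and 6.77 in wild-type cells. The groups did not overlap, but the log2 fold change of 0.16 (SE 0.06, 95% interval 0.02 to 0.30) did not pass the test (limma adjusted p = 0.10). The Ku subunit genes were at similar values in both genotypes. *Xrcc5* was 8.79, 8.75 and 8.73 in dKO and 8.90, 8.60 and 8.61 in wild-type cells, with a log2 fold change of 0.05 (95% interval -0.12 to 0.22). *Xrcc6* was 7.89, 7.82 and 7.94 in dKO and 7.99, 7.94 and 7.74 in wild-type cells, with a log2 fold change of -0.0032 (95% interval -0.16 to 0.15). *Desi1* overlaps *Xrcc6* in RefSeq, as the predicted gene *Gm52255* does *Prkdc*, and shared signal was not tested there either. In both Ku genes the dKO values lay within the span of the wild-type values.

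The genes of the ligation complex gave the narrowest intervals among the members. *Xrcc4*, the scaffold of ligase IV, was 9.15, 9.09 and 9.15 in dKO and 9.10, 9.17 and 9.17 in wild-type cells (log2 fold change -0.02, 95% interval -0.12 to 0.09). *Lig4*, the ligase itself, was 8.57, 8.49 and 8.55 in dKO and 8.54, 8.56 and 8.53 in wild-type cells (log2 fold change -0.0086, 95% interval -0.11 to 0.09). Adjusted p was 0.71 to 0.98 for *Xrcc4*, *Xrcc5*, *Xrcc6* and *Lig4*. Missing the threshold does not show that these genes were equal, and the intervals bound a change in either direction.

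Counted over the 9 measured members, 1 was called higher (*Dntt*), against 13.1% of all genes, and 2 were called lower (*Rag1* and *Prkdc*), against 10% of all genes. Arrays of the genotypes did not overlap for 3 members higher in dKO cells (*Dntt*, *Rag2* and *Nhej1*; 21.3% of all genes) and for 1 lower (*Prkdc*; 16.5%). The 6 end-joining genes had a median log2 fold change of -0.0059, beside 0.0057 for all genes, and ranged from -0.27 to 0.16. *Dntt* was the 1 member that rose by 2-fold or more, as 0.223% of all genes did, and no member fell by as much, as 0.582% of all genes did.

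**Figure D2:**
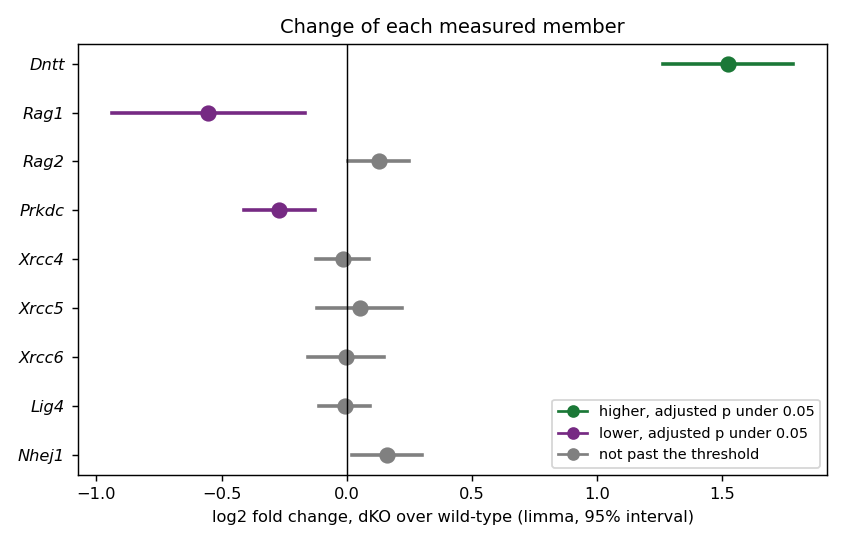
Log2 fold change of each measured member, dKO over wild-type, with the 95% interval from limma (3 arrays per genotype). *Dntt* lies at 1.52, *Rag1* at -0.55 and *Prkdc* at -0.27, and the other 6 members lie between -0.02 and 0.16.

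Whether *Dntt* changed differently from each other member was tested on the difference of log2 values within an array. For *Rag1*, this difference was larger in dKO than in wild-type cells by 2.08 log2 units (pooled SD 0.15, n = 3 each), so that the ratio of the *Dntt* value to the *Rag1* value was 4.22-fold that of wild-type. For *Rag2* the corresponding shift was 1.40 (pooled SD 0.15). Against the end-joining genes it was 1.36 (*Nhej1*), 1.47 (*Xrcc5*), 1.53 (*Xrcc6*), 1.53 (*Lig4*), 1.54 (*Xrcc4*) and 1.79 (*Prkdc*). In all 8 differences every dKO array lay above every wild-type array. All 8 hold the same *Dntt* values, whose groups lie 1.13 log2 units apart. The separation was therefore largely set by *Dntt* itself, and the 8 are not independent results. The exact two-sided permutation test gave p = 0.10 for each, adjusted p = 0.10 over the 8, which is the smallest p that 20 splits of 3 against 3 arrays allow. Leaving out each array in turn kept the shifts between 1.27 and 2.14.

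**Figure D3:**
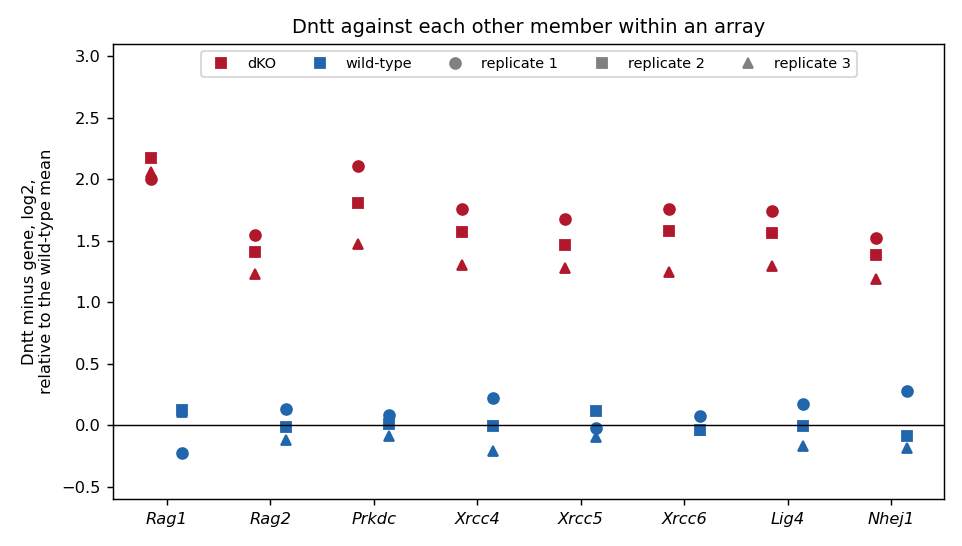
*Dntt* minus each other member, in log2 units within an array and relative to the wild-type mean of that difference, with dKO points left of wild-type points for each gene. The shift was smallest against *Nhej1* (1.36) and largest against *Rag1* (2.08), and no dKO point overlapped a wild-type point. All differences hold the same *Dntt* values and are not independent.

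*Dntt* belongs to a family of DNA polymerases that fill or extend broken ends, and its relatives *Polm* and *Poll* did not share its rise. *Polm* was 7.26, 7.12 and 7.04 in dKO and 7.43, 7.43 and 7.26 in wild-type cells (log2 fold change -0.23, limma adjusted p = 0.036). That call was lost without wild-type array 1 (-0.21, adjusted p = 0.11), wild-type array 2 (-0.20, 0.13), dKO array 2 (-0.22, 0.11) or dKO array 3 (-0.18, 0.12). *Poll* was 6.89, 7.0 and 6.91 in dKO and 6.89, 7.0 and 6.89 in wild-type cells (adjusted p = 0.94).

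Both polymerases were part of a list of RAG cofactors and other end-joining and end-processing genes. Of the 11 measured, 4 were higher, 2 were lower and 5 were not called, with a median log2 fold change of 0.0081, while 13.1% of all genes were called higher and 10% lower. *Aplf*, a scaffold that binds Ku, rose by 0.48 (adjusted p = 4.0e-04). *Tdp2* and *Tdp1*, which release topoisomerase remnants from DNA ends, rose by 0.36 (adjusted p = 5.7e-04) and 0.23 (adjusted p = 0.0060). *Cyren*, a modulator of end joining, fell by 0.33 (adjusted p = 0.0019). These changes were all smaller than that of *Dntt*.

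Of the 13 measured genes of the double-strand break response, 1 was higher and 12 were not called (median log2 fold change 0.01), against 13.1% of all genes called higher. The one was *Mdc1*, an adaptor at marked chromatin around breaks (0.31, adjusted p = 0.0065). In alternative end joining, a pathway that does not use Ku, 3 of 6 measured genes were higher, against the same 13.1% of all genes, and none was lower, against 10% (median 0.17). *Parp1*, a sensor of DNA breaks, rose by 0.34 (adjusted p = 8.1e-04), *Lig1*, the replicative ligase, by 0.32 (adjusted p = 0.0018) and *Polq*, a polymerase of this pathway, by 0.21 (adjusted p = 0.017). The call for *Polq* was lost without wild-type array 2 (0.18, adjusted p = 0.080), dKO array 1 (0.20, 0.051) or dKO array 3 (0.18, 0.059).

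Factors known to regulate *Rag* or *Dntt* transcription gave 8 lower, 0 higher and 12 not called of 20 measured. Their median log2 fold change was -0.05, beside 0.0057 for all genes, and 10% of all genes were called lower. None of the 20 lay below the median of the arrays. In a limma fit limited to the brightest 50% of genes, 1887 of 9876 were called lower and 2634 higher. The share of all genes is thus a low comparison for this and other bright lists. *Foxo1*, an activator of the *Rag* genes in lymphocytes, was 10.11, 10.19 and 10.24 in dKO and 11.07, 11.18 and 11.10 in wild-type cells (log2 fold change -0.94, adjusted p = 1.8e-06). *Zfp608*, known in mouse thymocytes as a repressor of the *Rag* genes, was 6.42, 6.31 and 6.43 in dKO and 7.08, 7.17 and 7.21 in wild-type cells (-0.77, adjusted p = 8.8e-06). *Id3*, an inhibitor of the E proteins that bind E boxes, fell by 0.68 (adjusted p = 3.2e-04), and the Ikaros family gene *Ikzf3* by 0.50 (adjusted p = 5.3e-04). The other genes called lower were *Myb* (-0.40, limma adjusted p = 0.0039), *Gfi1* (-0.36, 0.0010), *Runx1* (-0.27, 0.0075) and *Gata3* (-0.24, 0.0093). The lower genes held both a known activator and a known repressor of *Rag* transcription, which does not say how the 8 divide between these kinds.

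Within the same list, values of 3 of the 12 regulators that were not called are given, chosen after their values were seen. *Tcf3*, which encodes the E protein E2A, was 9.97, 9.95 and 9.87 in dKO and 9.75, 9.86 and 9.82 in wild-type cells (adjusted p = 0.14). *Ikzf1*, the gene of Ikaros, differed by 0.01 log2 units (adjusted p = 0.90). *Satb1*, a genome organizer that acts on the *Rag* locus in thymocytes, differed by -0.01 (adjusted p = 0.89). None of these passed the test.

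Of 10 chromatin and receptor-locus factors, 2 were lower, 1 was higher and 7 were not called, while 10% of all genes were called lower and 13.1% higher. *Smarca4*, the ATPase of the BAF remodelling complex, fell by 0.32 (adjusted p = 0.0013), and the cohesin subunit *Rad21* rose by 0.23 (adjusted p = 0.0059). *Kmt2d*, a histone H3K4 methyltransferase, fell by 0.21, a call that was lost without wild-type array 2 (-0.21, adjusted p = 0.055). A longer list of DP thymocyte genes, which includes the 6 measured DP markers given above, had 3 higher, 4 lower and 7 not called of 14 measured (median -0.01), beside the same shares of all genes. All 3 higher genes (*Cd8b1*, *Cd1d1* and *Mns1*) and *Arpp21* among the lower were already counted there. The called genes not counted there were *Spo11*, *Plxnd1* and *Themis* (-0.24, limma adjusted p = 0.0065), all of them lower. *Spo11*, a nuclease known from meiosis, was 5.11, 4.96 and 5.18 in dKO and 6.11, 5.88 and 5.83 in wild-type cells (-0.86, adjusted p = 5.1e-05), and *Plxnd1*, a semaphorin receptor, fell by 0.32 (adjusted p = 0.0012).

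**Figure D4:**
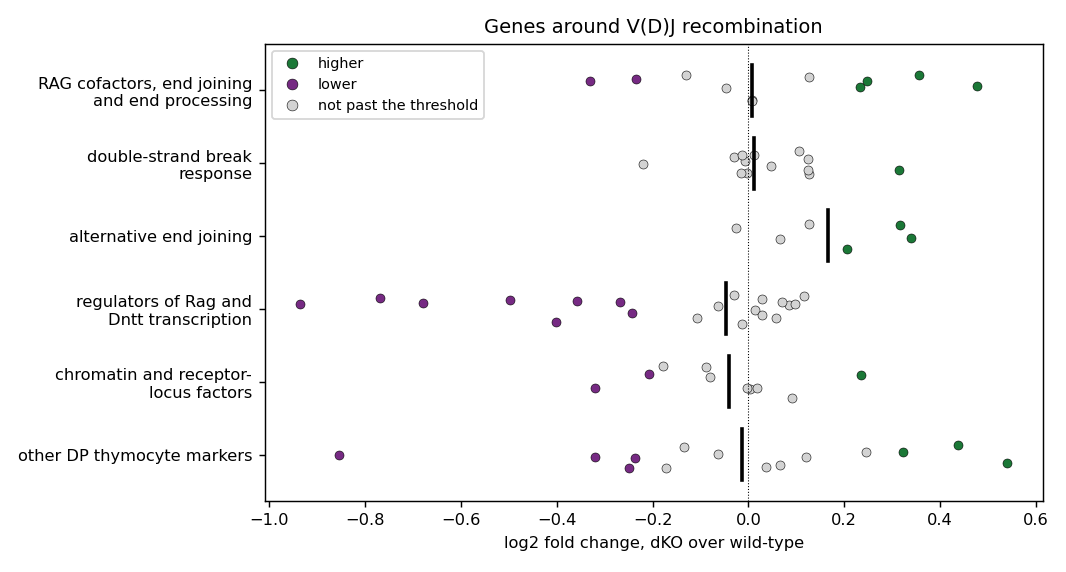
Log2 fold change, dKO over wild-type, of every measured gene in the lists around V(D)J recombination, 1 row per list, with the list median. The lists have medians between -0.05 and 0.17, and their highest value is 0.54 (*Cd8b1*). *Dntt*, which is not drawn here, had 1.52.

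The genes on either side of *Dntt* on its chromosome did not share the size of its change. Among the 10 nearest measured genes, log2 fold changes ranged from -0.15 to 0.20. *Blnk*, a B-cell receptor adaptor, was 5.15, 5.19 and 5.21 in dKO and 5.28, 5.21 and 5.34 in wild-type cells (adjusted p = 0.24), and *Opalin*, a gene of myelin-forming cells, differed by 0.02 log2 units (adjusted p = 0.86). *Tctn3* (0.20) and *Zfp518a* (0.19) were called higher and *Lcor* (-0.15) lower, while 13.1% of all genes were called higher and 10% lower. The call for *Tctn3* was lost without wild-type array 2 (0.20), wild-type array 3 (0.18), dKO array 2 (0.17) or dKO array 3 (0.18), with adjusted p of up to 0.081. That for *Zfp518a* was lost without wild-type array 1 (0.17), wild-type array 2 (0.19), dKO array 1 (0.20) or dKO array 3 (0.16), with adjusted p of up to 0.080. That for *Lcor* was lost without any array other than dKO array 3 (-0.17 to -0.13 over the 6 fits, adjusted p up to 0.099).

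Around the *Rag* genes, which lie beside each other, the 10 nearest measured genes ranged from -0.27 to 0.28. *Ttc17* (-0.27, adjusted p = 0.0018) and *Ldlrad3* (-0.25, adjusted p = 0.0073) were lower. *Commd9* (0.28, adjusted p = 0.013) and *Iftap* (0.19, adjusted p = 0.036) were higher. The shares of all genes were 10% lower and 13.1% higher. The *Iftap* call was lost without wild-type array 2 (0.15, adjusted p = 0.15), wild-type array 3 (0.19, 0.077), dKO array 1 (0.17, 0.11) or dKO array 2 (0.18, 0.11). *Traf6*, a signalling adaptor next to the *Rag* genes, differed by 0.07 log2 units (adjusted p = 0.37). No neighbour of either locus changed by as much as *Rag1* or *Dntt* did.

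**Figure D5:**
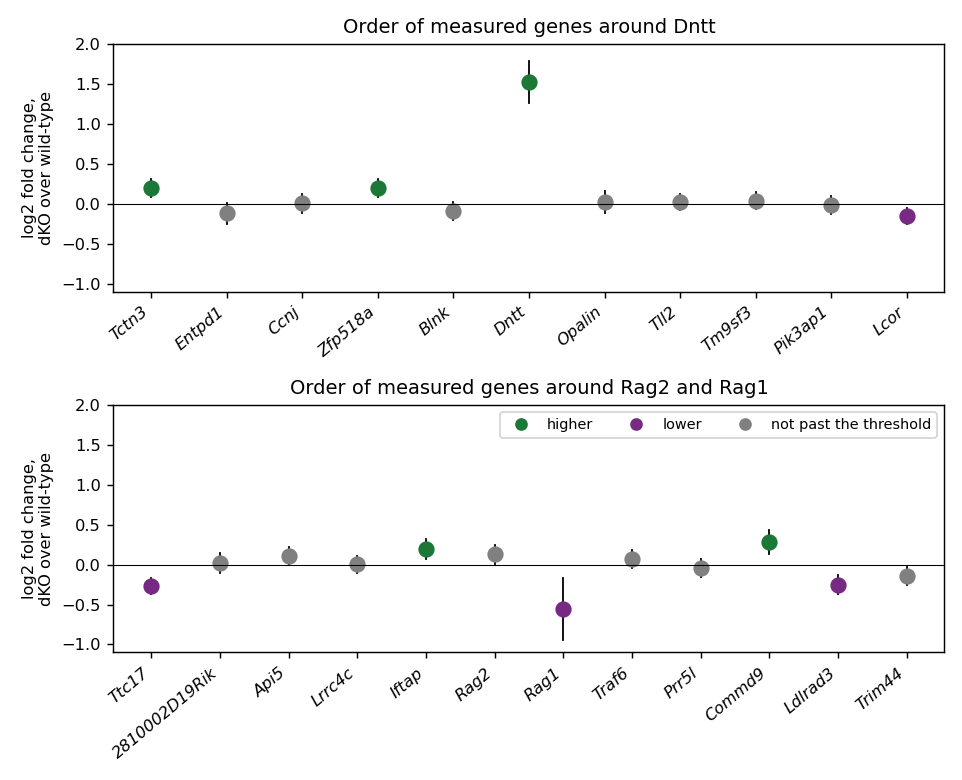
Log2 fold change, dKO over wild-type, of the measured genes in chromosomal order around *Dntt* and around *Rag1* and *Rag2*. Neighbours of *Dntt* lie between -0.15 and 0.20, against 1.52 for *Dntt*, and those of the *Rag* genes between -0.27 and 0.28, against -0.55 for *Rag1*.

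The genes whose profile over the 6 arrays was most like that of *Dntt* were ranked by the Euclidean distance between mean-centred log2 values. *Slc16a5*, a member of the monocarboxylate transporter family, was nearest (distance 0.15) and was 10.48, 10.28 and 10.02 in dKO, against 8.81, 8.78 and 8.64 in wild-type cells. It was followed by *Lrrc3b* (distance 0.37), *D17H6S56E-5* (0.37), the Rab GTPase gene *Rab6b* (0.37) and the matrix metalloproteinase gene *Mmp14* (0.41). Their log2 fold changes lay between 1.30 (*Mmp14*) and 1.66 (*Lrrc3b*). None of the 5 was among the members or the lists above.

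The nearest profiles to *Rag1* were those of *Mki67* (distance 0.25) and *Top2a* (0.28), both known from dividing cells, followed by *Lynx1* (0.30), *BC147527* (0.35) and the guanylate-binding protein gene *Gbp8* (0.38). *Mki67* was 6.41, 6.10 and 5.97 in dKO and 7.0, 6.80 and 6.53 in wild-type cells (log2 fold change -0.62, adjusted p = 0.0062). *Top2a* was 6.01, 5.86 and 5.46 in dKO and 6.57, 6.16 and 6.06 in wild-type cells (-0.48, adjusted p = 0.044). In each genotype *Rag1*, *Mki67* and *Top2a* were highest on array 1 and lowest on array 3. *Dntt*, *Rag2* and *Slc16a5* had the same order in both genotypes, so it was not particular to *Rag1* and these genes. *Mki67* and *Top2a* were picked for their likeness to *Rag1* on these same arrays, so their shared order is not a separate result.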

How the data were processed

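RNA of 3 dKO and 3 wild-type samples of mature OT-II CD4 SP thymocytes was measured. According to the Methods the authors used Affymetrix Mouse Gene 1.0 ST arrays, although a different type is named in the design text. Partek and RMA are listed in the submitters' processing notes, with versions not given in the sources used here. As deposited by the authors, log2 values are background-corrected, quantile normalized and summarized per transcript row, which would hide a change shared by most genes and compresses dim genes. Probe positions and signal over background were not given, and the number of arrays limits precision.

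The table held 25254 rows, 21496 with 1 gene symbol, 1565 with several and 2193 without any, and only the first kind was tested. Symbols were updated through RefSeq (GRCm38.p6, 21415 found), for the 938 genes with more than 1 row the brightest by mean was used, and 19752 genes were tested. limma 3.58.1 in R 4.3.3 was fitted with genotype as the only term (dKO minus wild-type), and p-values were adjusted over the whole table by the Benjamini-Hochberg method (threshold 0.05). *Dntt* was set against each other measured member within arrays by an exact two-sided permutation test. Tested on simulated data drawn from these 19752 genes, with 50 genes changed at each size, the fit recovered 28% of log2 changes of 0.25, 86% of 0.5 and 100% of 1 or more. Only 200 genes were changed there, against 4563 called on the real arrays, so recovery on these arrays can differ. Alternatives were other normalizations, filters on dim genes, other rules for rows, a variance trend, a plain t-test (which the Methods name for data other than arrays), a replicate block and leaving out each array.

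The members and lists were chosen with earlier results of these data known. Genes named in the text were the members, in each list the genes called or at most 4 with the smallest p, and the 5 nearest profiles to *Dntt* and to *Rag1*, leaving out symbols that end in Rik or start with Gm or LOC and a digit. Other genes named (cell type markers, *Poll*, *Tcf3*, *Ikzf1*, *Satb1*, *Blnk*, *Opalin* and *Traf6*) were chosen after their values were seen. *Myb*, *Gfi1*, *Runx1*, *Gata3* and *Themis* were added to complete the called genes of their lists. Promoter windows came from RefSeq, and 9 of 10 members had at least 1. NK cell markers (0 of 4 called, all below the first quartile of the arrays), macrophage and dendritic cell markers (2 of 8 called, *Lyz2* by 0.81 and *Itgam* by -0.78 log2 units) and thymic epithelial markers (1 of 5 called, *Epcam* by 0.28) were also read. Of all genes, 23.1% were called. Python 3.11.15 with matplotlib 3.10.9 made the figures.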

Additional observations from a re-analysis of the deposited data

How the results depend on the processing

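*Dntt* stayed higher under every alternative run (log2 fold change 1.41 to 1.64 with 1 array left out, 1.47 to 1.52 otherwise, adjusted p up to 0.017). So did its 8 differences from the other members, which all hold the same *Dntt* values. The *Rag1* call was lost after quantile normalization again (-0.54, adjusted p = 0.068), cyclic loess normalization (-0.55, 0.054), a fit over all rows of the table (-0.55, 0.055), an intensity trend with robust variances (-0.55, 0.12) and a plain t-test (-0.55, 0.27), and its log2 fold change ranged from -0.71 to -0.35 with 1 array left out. *Prkdc* kept its call except in the plain t-test (-0.27, adjusted p = 0.10), with -0.32 to -0.22 when an array was left out. The changes of *Xrcc6* (-0.077 to 0.046), *Lig4* (-0.023 to 0.013) and *Xrcc4* (-0.040 to 0.0041) crossed 0 when an array was left out. *Rag2* (0.085 to 0.15), *Nhej1* (0.11 to 0.21) and *Xrcc5* (0.00015 to 0.15) stayed above 0 and did not pass the test in any of these fits.

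The plain t-test called 1392 genes higher and 1173 lower after Benjamini-Hochberg adjustment, against 2587 and 1976 in limma. With 1 array left out, 1901 to 2259 genes were higher and 1496 to 1855 lower. Among regulators of *Rag* and *Dntt*, the plain t-test called 5 lower and 1 higher. Labels of the genotypes share replicate numbers, but deviations of same-numbered arrays correlated at only 0.099, 0.024 and 0.070. With the replicate number as a block, 2574 genes were higher and 1970 lower, and *Rag1* had adjusted p = 2.5e-04. The cause of these differences was not tested. In the simulated data with 3 arrays per genotype and 200 changed genes, log2 changes of 0.25 were often missed. Dim rows such as that of *Rag2* also limit what can be seen.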
